A study of Mus musculus with 6 samples.

Results

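The autophagy machinery and its cargo receptors were followed across muscle of the 113Q knock-in mouse, a model of spinal and bulbar muscular atrophy (SBMA), and of wild-type (WT) mice. The 34 genes were taken by symbol from a table of 27131 genes, and each was present as a single row. Messenger RNA came from the levator ani/bulbocavernosus muscle, an androgen-dependent pelvic muscle of male rodents, of 3 113Q and 3 WT mice killed at 14 weeks. SBMA is caused by a longer glutamine (Q) tract in the androgen receptor, and the knock-in mice carry such a tract in the receptor's own gene, so it is present wherever that gene is expressed. All mice were on standard chow, and no treatment, Cre line or transgene is labelled for either group. The labels do not give the sex, the zygosity, the strain or the litters.

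Autophagy encloses part of the cytoplasm in a double membrane, the autophagosome, and delivers it to the lysosome. A kinase complex around Ulk1 starts the process, a lipid kinase complex marks the membrane, lipid carriers let it grow, and small ubiquitin-like proteins of the ATG8 family are coupled to it. Receptors such as Sqstm1 bind ubiquitin-tagged cargo on one side and ATG8 proteins on the other. In skeletal muscle the pathway is known for clearing damaged mitochondria and protein aggregates and for its activity in fasting and denervation.

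Most of these transcripts differed little in level between the groups, relative to the other genes of the muscle. Of the 34 genes, 4 rose in 113Q muscle (Uvrag, Becn1, Map1lc3b and Gabarapl1), 2 fell (Wipi1 and Gabarap, both above 0 with library totals alone) and 28 did not pass an adjusted p below 0.05 in edgeR's quasi-likelihood test. That is 17.6% of the genes called, beside 34.6% of the 16960 genes tested (16.5% higher and 18.1% lower). The median log2 fold change was -0.01, beside 0.01 over all genes tested, and the median size of the change was 0.16, beside 0.37. The 16960 genes include ones with lower counts than these 34, and genes of like counts were not compared. The changes ran from -0.60 to 0.65, and 25 of the 34 were smaller than 0.25 on the log2 scale. The 95% interval of the change lay within 1.5 times in either direction for 26 of the 28 genes that did not pass. All 34 genes passed the filter on low counts, with at least 392 and at most 53685 estimated counts in each library.

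These values depend on how the libraries are scaled. Estimated counts summed to between 67897870 and 73873481 in the 113Q libraries and to between 43581087 and 68983982 in the WT libraries. The TMM factors, which set the libraries level on the bulk of their genes, were between 1.26 and 1.32 in 113Q and between 0.768 and 0.794 in WT. Summed CPM (counts scaled to the library total and to these factors) of 11 skeletal myofibre markers ranged from 45619.5 to 55126 in 113Q and from 181901 to 205723 in WT, and 11 of the 11 fell. With library totals alone 7 of the 11 passed as lower, Myh4, Ttn and Neb did not pass (log2 fold change -0.51, -0.21 and -0.10), and Des turned to higher (0.28). Each of these markers was nonetheless detected in every library, as the tissue label requires. Replacing these factors with library totals alone shifted the genome-wide median up by 0.72 on the log2 scale. The 34 genes then held 0.370%, 0.387% and 0.369% of all counts in the 113Q libraries, and 0.242%, 0.230% and 0.226% in the WT libraries. On that scale all 34 had a log2 fold change above 0 and 32 passed, all as higher. Of all genes, 69.1% passed on that scale, 64.9% as higher and 4.19% as lower. The 113Q mice lay above all WT mice for 31 of the 34 (91.2%) and below for none, beside 69.8% and 4.86% of all genes. Scaled with TMM factors, their summed level was 2801, 3054 and 2923 CPM in 113Q and 3119.9, 2995 and 2839.8 CPM in WT, and the groups overlapped. Changes below are given relative to the other genes. Where the direction of 1 of the 34 genes turns, the value for library totals is given beside the gene or in the closing section. In whole muscle, fewer cells of a type and less RNA per cell cannot be told apart.

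**Figure D1:**
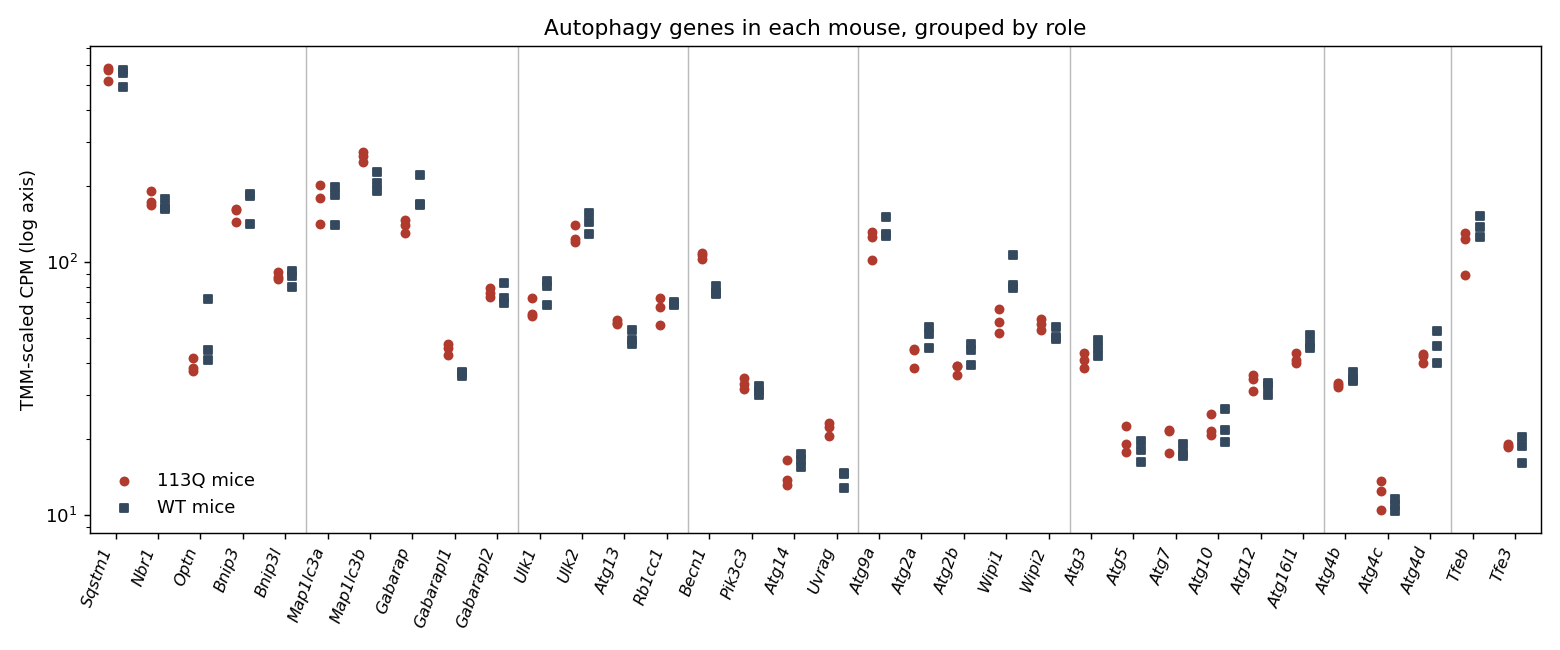
TMM-scaled CPM (log axis) of each of the 34 autophagy genes in each of the 3 113Q mice (circles) and 3 WT mice (squares), in groups by role from receptors on the left to transcription factors on the right. The groups separate for Uvrag and Becn1, with 113Q above WT, and, on this scale but not with library totals, for Wipi1, with 113Q below WT, while most genes overlap.

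RNA of other tissues also differed between libraries. Smooth muscle markers (7 genes, of which 1, Acta2, rose) summed to 2839.7, 1828 and 1322 CPM in 113Q and to 365, 622 and 819.9 CPM in WT. Epithelial markers (7 genes, 0 called) summed to 1.21, 46.3 and 89.3 CPM in 113Q and to 1.95, 53.6 and 2.29 CPM in WT, and Epcam was at 0 in 113Q mouse 1 and WT mouse 1. Endothelial markers (6 genes, all lower with TMM factors) summed to between 237 and 244 CPM in 113Q and to between 337 and 442 CPM in WT. With library totals alone 0 of these 6 passed as lower, Tek passed as higher (log2 fold change 0.42), Vwf and Emcn turned to 0.15 and 0.17 without passing, and Pecam1, Cdh5 and Kdr did not pass. Fibroblast markers (6 genes, 0 called) summed to between 1397 and 1909 CPM in 113Q and to between 854 and 1657 CPM in WT. Macrophage markers (6 genes, 0 called) summed to between 43.9 and 55.6 CPM in 113Q and to between 36.4 and 65.3 CPM in WT. Adipocyte markers (5 genes, 1 lower) summed to between 157 and 257 CPM in 113Q and to between 193 and 436 CPM in WT, and the lower one, Fabp4 (log2 fold change -0.68), turned to 0.035 with library totals, where it did not pass. Schwann cell markers (5 genes, 1 higher) summed to between 79.9 and 119.1 CPM in 113Q and to between 94.8 and 129 CPM in WT. No marker on these lists was at 0 in all libraries of a group. The part of these tissues in the results below was not tested.

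Promoters were read because Tfeb and Tfe3 act on autophagy genes through the CLEAR element, a motif around the E-box CACGTG. RefSeq windows (GRCm38.p6, the assembly of mm10) from 250 bases before to 50 bases after a start were found for 27 of the 34 genes. The letters CACGTG, on either strand, were in windows of 5 genes (18.5%), Bnip3, Atg14, Atg3, Atg5 and Atg7, beside 8.09% of 27025 genes. The CLEAR core TCACGTGA, which contains the E-box, was in the Atg3 window (3.7%), beside 1.12% of genes. The letters TGTTTAC, a form of the FOXO motif, were in 0 windows, beside 4.05% of genes. Other forms of the FOXO motif were not searched. None of the 5 genes with an E-box passed the test, and of the 6 that passed, 5 have a window here and none of these holds the E-box letters. Since 17.6% of the 34 genes passed, 5 genes are too few to show whether motif and change are linked, which was not tested. The bases from 200 to 51 before the start are shown for 2 genes with the E-box, Atg3 (chr16:45158629-45158778, plus strand) and Bnip3 (chr7:138909557-138909706, minus strand). They are shown beside 2 genes that rose, Gabarapl1 (chr6:129532992-129533141, plus strand) and Uvrag (chr7:99141195-99141344, minus strand), 5′ to 3′ on the gene's strand, with E-box and CLEAR core letters in capitals.
Atg3: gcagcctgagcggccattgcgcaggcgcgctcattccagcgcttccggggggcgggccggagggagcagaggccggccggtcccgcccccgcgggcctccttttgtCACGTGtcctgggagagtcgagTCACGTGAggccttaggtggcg
Bnip3: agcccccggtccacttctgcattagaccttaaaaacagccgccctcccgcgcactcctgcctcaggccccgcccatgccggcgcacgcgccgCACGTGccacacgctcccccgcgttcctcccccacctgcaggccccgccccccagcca
Gabarapl1: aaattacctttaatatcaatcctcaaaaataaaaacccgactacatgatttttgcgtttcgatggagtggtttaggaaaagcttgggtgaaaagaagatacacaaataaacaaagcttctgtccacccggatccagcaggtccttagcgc
Uvrag: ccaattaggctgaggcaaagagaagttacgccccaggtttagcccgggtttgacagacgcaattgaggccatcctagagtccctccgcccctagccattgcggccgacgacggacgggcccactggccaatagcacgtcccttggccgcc
The Atg3 and Bnip3 stretches were rich in G and C (72.7% each, with 17 and 15 CG steps), the Uvrag stretch was at 62% with 11, and the Gabarapl1 stretch at 39.3% with 5. A match of letters is a description of the sequence and not of binding.

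The smallest p-values among the 34 genes were in the lipid kinase complex. Pik3c3 is the kinase that makes phosphatidylinositol 3-phosphate, Becn1 is its scaffold, Atg14 sends the complex to forming autophagosomes, and Uvrag takes the place of Atg14 in a second complex that acts on endosomes and late steps. Of these 4 genes, 2 rose and 2 did not pass, with a median log2 fold change of 0.28. Uvrag was at 23.1, 22.4 and 20.6 CPM in 113Q mice, against 12.8, 14.6 and 14.6 CPM in WT mice. Every 113Q mouse was above every WT mouse, and Uvrag rose 1.57 times (log2 fold change 0.65, SE 0.10, edgeR adjusted p = 0.00176). Becn1 was at 109, 107 and 103 CPM in 113Q mice, against 75.0, 75.7 and 80.9 CPM in WT mice. It rose 1.38 times with groups that did not overlap (log2 fold change 0.46, SE 0.07, edgeR adjusted p = 0.00183). Groups did not overlap for 11 of the 34 genes (32.4%), 5 higher and 6 lower, beside 49.9% of all genes.

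Their partners did not pass. Pik3c3 was at 32.9, 34.8 and 31.6 CPM in 113Q mice and at 29.9, 31.1 and 32.4 CPM in WT mice, which overlap. Atg14 was at 16.6, 13.2 and 13.8 CPM in 113Q mice and at 17.4, 15.5 and 16.5 CPM in WT mice (log2 fold change -0.18, 0.54 with library totals). The ratio of Uvrag to Atg14 counts within a library does not depend on scaling. It was 1.39, 1.70 and 1.5 in 113Q mice and 0.733, 0.945 and 0.887 in WT mice, so that Uvrag had more counts than Atg14 in each 113Q library and fewer in each WT library. Counts also depend on transcript length (longest coding transcript 5157 bases for Uvrag, 3729 for Atg14), so this crossing of 1 does not rank their levels. The ratio of Becn1 to Pik3c3 was 3.31, 3.08 and 3.26 in 113Q mice and 2.51, 2.43 and 2.50 in WT mice. These 2 ratios were chosen after their values were seen and have no test. Exons of Becn1 (chromosome 11, 101285952 to 101302286) share 1394 bases with Cntd1 on the other strand, and without a stated strand setting their reads cannot be told apart. Cntd1 itself was listed at 0.927, 0.537 and 0.633 CPM in 113Q and at 0.207, 0.660 and 1.08 CPM in WT. Uvrag lies on chromosome 7 from 98885021 to 99141141, and shares 92 exon bases with the antisense gene Gm45187. Both calls held under all 18 alternative settings, with an adjusted p from 1.12e-06 to 0.0286 for Uvrag and from 5.51e-07 to 0.0451 for Becn1.

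**Figure D2:**
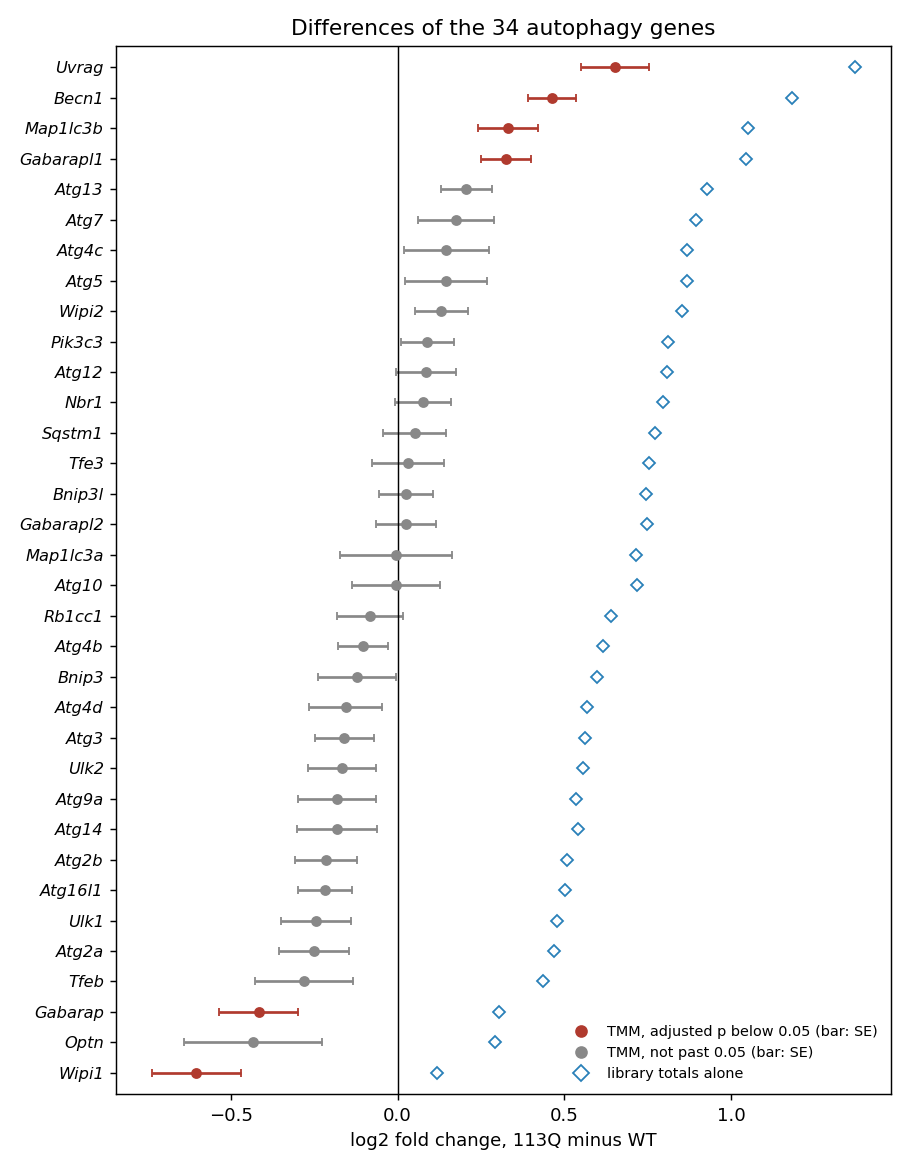
Log2 fold change, 113Q minus WT, of the 34 genes in order of size. Circles with bars give the change and its SE with TMM factors (red where the adjusted p was below 0.05), and diamonds give the change with library totals alone. The diamonds all lie above 0, so that Wipi1 and Gabarap, which passed as lower with TMM factors, change sign.

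The ATG8 family moved in both directions relative to other genes, though with library totals alone its 5 genes all lay above 0. Its proteins are coupled to the lipid phosphatidylethanolamine on the autophagosome, where the LC3 members (Map1lc3a and Map1lc3b) and the GABARAP members (Gabarap, Gabarapl1 and Gabarapl2) bind receptors and other machinery. Of the 5 genes, 2 rose, 1 fell and 2 did not pass. In mm10, Map1lc3b lies on chromosome 8 from 121590361 to 121598760, Gabarapl1 on chromosome 6 from 129533160 to 129542346 and Gabarap on chromosome 11 from 69991143 to 69994951. Map1lc3b was at 248, 273 and 263 CPM in 113Q mice and at 227, 192 and 206 CPM in WT mice. The groups did not overlap, and Map1lc3b rose 1.26 times (log2 fold change 0.33, SE 0.09, edgeR adjusted p = 0.0216). Gabarapl1 was at 47.5, 45.8 and 43.1 CPM in 113Q mice and at 36.5, 37.0 and 35.5 CPM in WT mice. It rose 1.25 times, again with no overlap (log2 fold change 0.32, SE 0.07, edgeR adjusted p = 0.0110). Map1lc3b shares 58 exon bases with Zcchc14 on the other strand, which was at 39.3, 44.0 and 39.6 CPM in 113Q and at 50.3, 50.9 and 51.1 CPM in WT.

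Gabarap was at 130.3, 141 and 147 CPM in 113Q mice and at 220.4, 169.5 and 169 CPM in WT mice. All 113Q mice were below all WT mice, among which WT mouse 1 was highest, and Gabarap fell to 0.750 of its WT level (log2 fold change -0.42, SE 0.12, edgeR adjusted p = 0.0262). With library totals alone its direction turned, with a log2 fold change of 0.30 and an edgeR adjusted p = 0.0391 as higher. Map1lc3a was at 141, 179 and 201 CPM in 113Q mice and at 185, 198 and 139.9 CPM in WT mice. Its means were 174 ± 30.4 CPM in 113Q and 174 ± 30.6 CPM in WT (SD, n = 3 each), and the 95% interval of the change ran from 0.760 to 1.31 times. Gabarapl2 was at 79.4, 75.6 and 72.8 CPM in 113Q mice and at 83.0, 68.8 and 72.1 CPM in WT mice, which overlap. Its change had a 95% interval from 0.882 to 1.17 times.

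The calls of Map1lc3b and Gabarap were lost when single mice were left out. Map1lc3b lost its call without WT mouse 2, WT mouse 3, 113Q mouse 2 or 113Q mouse 3, with an edgeR adjusted p of 0.0578, 0.0699, 0.0783 and 0.0665 (2.91e-05 to 0.383 across its alternatives). Gabarap lost its call without 113Q mouse 1, 2 or 3, with an edgeR adjusted p of 0.0893, 0.0754 and 0.0558 (0.00458 to 0.0893 across its alternatives). Gabarap also lost its call with a term for the 3 libraries with Epcam of at least 1 CPM (edgeR adjusted p = 0.0508). Leaving out those 3 libraries leaves 113Q mouse 1 against WT mice 1 and 3. Gabarapl1 (log2 fold change 0.40), Map1lc3b (0.20) and Gabarap (-0.58) all lost their calls there, with an edgeR adjusted p of 0.0808, 0.383 and 0.0780 (2.19e-05 to 0.0808 for Gabarapl1 across its alternatives).

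Ratios of counts within a library set these paralogues against each other with no scaling. The Gabarapl1 to Gabarap ratio was 0.364, 0.325 and 0.292 in 113Q mice and 0.165, 0.218 and 0.210 in WT mice, higher in each 113Q mouse than in any WT mouse. The mean difference was 0.73 on the log2 scale, which is 1.66 times. The ratio of Map1lc3a to Map1lc3b was 0.568, 0.655 and 0.765 in 113Q mice and 0.816, 1.03 and 0.680 in WT mice, which overlap. An exact two-sided permutation test of 3 mice against 3 cannot give a p under 0.1. The exact test gave p = 0.1 for Gabarapl1 to Gabarap and p = 0.2 for Map1lc3a to Map1lc3b, or 0.267 and 0.32 after Benjamini-Hochberg adjustment over the 8 ratios computed. The ratio of Map1lc3b to Gabarap, chosen after its values were seen and not tested, was 1.91, 1.94 and 1.79 in 113Q mice and 1.03, 1.13 and 1.22 in WT mice.

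**Figure D3:**
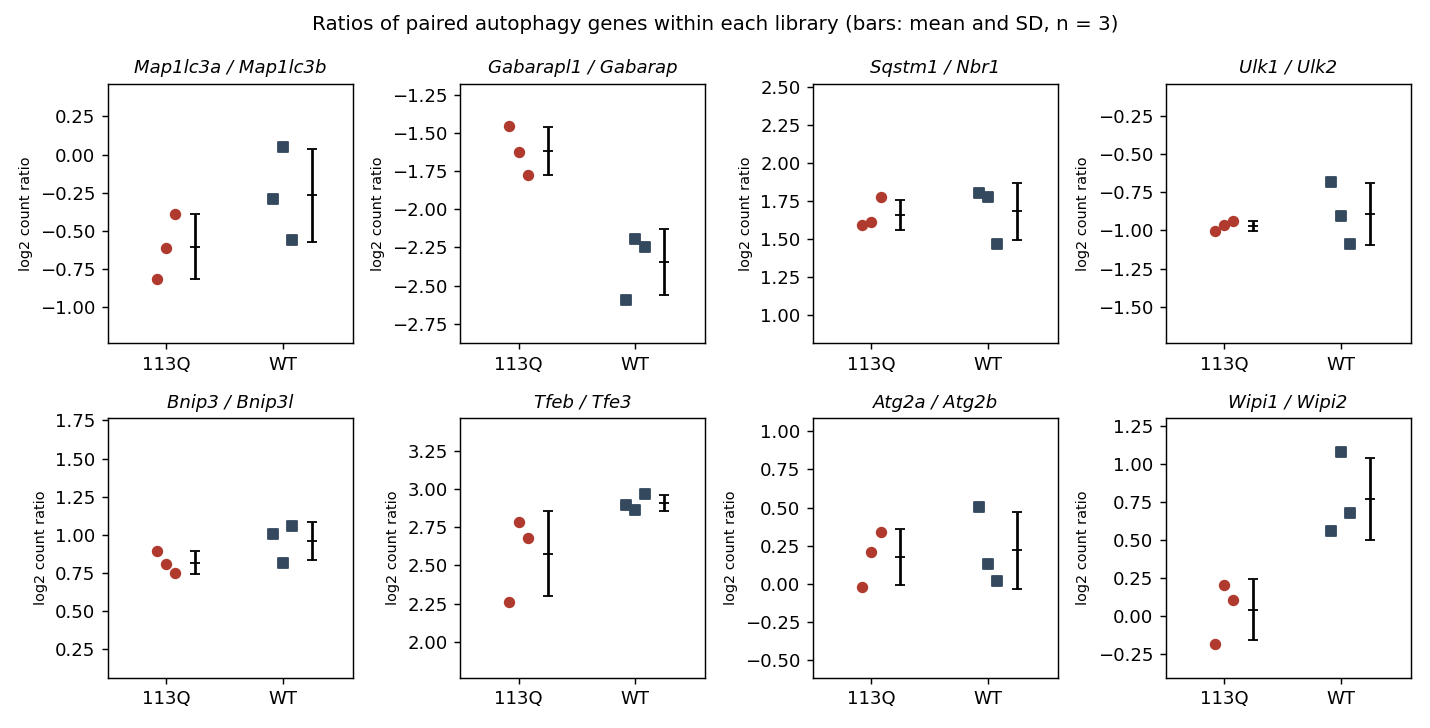
Log2 ratio of estimated counts of 8 pairs of autophagy genes within each library, for 3 113Q mice (circles) and 3 WT mice (squares), with mean and SD beside the points. Every panel spans the same height on the log2 axis, and the groups separate for Gabarapl1 to Gabarap (113Q higher), Wipi1 to Wipi2 and Tfeb to Tfe3 (113Q lower).

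Among genes of membrane growth, 1 fell. Atg9a is a membrane protein that seeds the growing sheet, Atg2a and Atg2b carry lipid into it, and Wipi1 and Wipi2 bind the phosphoinositide that the Pik3c3 complex makes. The other 4 of these 5 genes did not pass, and the 5 had a median log2 fold change of -0.21. Wipi1, on chromosome 11 from 109573331 to 109611967, was at 52.8, 65.5 and 58.2 CPM in 113Q mice and at 81.5, 107 and 79.3 CPM in WT mice. The groups did not overlap, WT mouse 2 stood highest, and Wipi1 fell to 0.658 of its WT level (log2 fold change -0.60, SE 0.13, edgeR adjusted p = 0.00967). Its direction turned with library totals alone, where the log2 fold change was 0.12, the groups overlapped and the call was lost (edgeR adjusted p = 0.414). Under the other alternatives the adjusted p of Wipi1 stayed below 0.05, and without any 1 mouse it ranged from 0.0128 to 0.0398.

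Wipi2, which brings the Atg16l1 complex to the membrane, was at 59.8, 56.9 and 53.9 CPM in 113Q mice and at 55.4, 50.8 and 49.7 CPM in WT mice, which overlap. Within a library, the ratio of Wipi1 to Wipi2 counts was 0.882, 1.15 and 1.08 in 113Q mice and 1.47, 2.11 and 1.6 in WT mice. It was lower in each 113Q mouse, by 0.73 on the log2 scale on average (exact p = 0.1, the smallest possible, adjusted 0.267). Atg2a was at 38.1, 45.0 and 45.6 CPM in 113Q mice and at 55.5, 52.1 and 45.7 CPM in WT mice. Atg2b was at 38.8, 38.8 and 36.0 CPM in 113Q mice and at 39.1, 47.5 and 45.1 CPM in WT mice. Neither overlapped between groups, both had an unadjusted edgeR p under 0.05, and neither passed after adjustment (edgeR adjusted p = 0.0984 and 0.108). Their log2 fold changes of -0.25 and -0.21 became 0.47 and 0.51 with library totals, where both passed as higher (edgeR adjusted p = 0.00233 and 0.00173). Atg2b passed as lower without WT mouse 1, and with 1 mouse left out its edgeR adjusted p ranged from 0.0389 to 0.299. The ratio of Atg2a to Atg2b overlapped between the groups (exact p = 0.9, adjusted 0.9). Atg9a was at 102, 132 and 125 CPM in 113Q mice and at 151, 129.6 and 127 CPM in WT mice, with 113Q mouse 1 lowest. Its exons share 1832 bases with Gm29253 on the same strand, so its level is uncertain.

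None of the 4 initiation genes passed. Ulk1 and Ulk2 are the kinases, and Atg13 and Rb1cc1 (also called FIP200) are the scaffolds that hold them. Atg13 was at 57.7, 59.3 and 57.1 CPM in 113Q mice and at 53.9, 47.6 and 49.4 CPM in WT mice. Its groups did not overlap, and the 1.15-fold difference did not pass (log2 fold change 0.21, SE 0.08, edgeR adjusted p = 0.0702). It passed with voom, with upper-quartile factors, with library totals and without WT mouse 1 (adjusted p = 0.0449, where voom called 37.5% of all genes, and 0.0343, 3.13e-05 and 0.0426 in edgeR; across its alternatives 3.13e-05 to 0.479). Ulk1 was at 61.6, 72.0 and 62.6 CPM in 113Q mice and at 80.5, 84.0 and 68.0 CPM in WT mice. These overlap, and Ulk1 did not pass (log2 fold change -0.24, SE 0.10, edgeR adjusted p = 0.107). It passed as lower without WT mouse 3, and with 1 mouse left out its edgeR adjusted p ranged from 0.0469 to 0.277. With library totals Ulk1 passed in the other direction, as higher (log2 fold change 0.48, edgeR adjusted p = 0.00239). Ulk2 was at 124, 141 and 119.9 CPM in 113Q mice and at 129, 157 and 144 CPM in WT mice. Rb1cc1 was at 72.2, 66.4 and 56.4 CPM in 113Q mice and at 68.7, 69.8 and 68.0 CPM in WT mice. Both overlap between groups, and the spread of Rb1cc1 was wider among 113Q mice. The Ulk1 to Ulk2 ratio was 0.499, 0.513 and 0.522 in 113Q mice and 0.624, 0.534 and 0.470 in WT mice (exact p = 0.7, adjusted 0.9).

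None of the 5 receptors passed. Sqstm1, which collects ubiquitin-tagged protein and is itself degraded by autophagy, was at 522, 586 and 576 CPM in 113Q mice and at 573, 559 and 493 CPM in WT mice. The groups overlapped, and the change of 1.04 times had a 95% interval from 0.893 to 1.20 (edgeR adjusted p = 0.714). Nbr1, a receptor of similar build, was at 173, 191 and 168 CPM in 113Q mice and at 164, 163 and 178 CPM in WT mice, with an interval from 0.923 to 1.20 times. The Sqstm1 to Nbr1 ratio was 3.01, 3.06 and 3.42 in 113Q mice and 3.49, 3.43 and 2.77 in WT mice (exact p = 0.8, adjusted 0.9). Sqstm1 shares 580 exon bases with Mrnip on the other strand, which was at 5.58, 5.85 and 5.38 CPM in 113Q and at 7.22, 5.70 and 4.49 CPM in WT.

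The mitochondrial receptors also overlapped between groups. Bnip3, an outer membrane protein that recruits ATG8 proteins to mitochondria, was at 163, 161 and 145 CPM in 113Q mice and at 186, 141 and 183 CPM in WT mice. Bnip3l, its close relative, was at 87.5, 91.8 and 86.2 CPM in 113Q mice and at 92.5, 80.2 and 88.1 CPM in WT mice. The interval of the Bnip3l change ran from 0.896 to 1.16 times, and that of Bnip3 from 0.763 to 1.11 times. The Bnip3 to Bnip3l ratio was 1.86, 1.75 and 1.68 in 113Q mice and 2.01, 1.76 and 2.08 in WT mice, which overlap (exact p = 0.2, adjusted 0.32). Optn, a receptor for ubiquitin-tagged mitochondria and aggregates, was at 41.7, 38.3 and 37.1 CPM in 113Q mice and at 41.1, 71.7 and 45.2 CPM in WT mice. WT mouse 2 stood far above the rest, and the Optn difference did not pass (log2 fold change -0.43, SE 0.21, edgeR adjusted p = 0.153). Without WT mouse 2 the Optn log2 fold change was -0.15. Epcam was at 3.83 CPM in WT mouse 2 and at 8.29 and 10.2 CPM in 113Q mice 2 and 3. A link between Epcam and Optn was not tested.

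None of the 6 conjugation enzymes and 3 ATG4 proteases passed. Atg7 activates the ubiquitin-like proteins, Atg3 passes ATG8 proteins to lipid, Atg10 passes Atg12 to Atg5, and Atg16l1 places the Atg12-Atg5 conjugate on the membrane. Atg16l1 was at 40.9, 43.9 and 39.9 CPM in 113Q mice and at 51.5, 46 and 47.7 CPM in WT mice. Its groups did not overlap, with a log2 fold change of -0.22 (SE 0.08, edgeR adjusted p = 0.0677) that became 0.50 with library totals. Atg3, whose CLEAR core is shown above, was at 43.7, 41.1 and 38.3 CPM in 113Q mice and at 49.4, 45.7 and 42.5 CPM in WT mice, which overlap. Atg7, a gene with an E-box, was at 17.6, 21.6 and 21.8 CPM in 113Q mice and at 19.1, 17.2 and 17.7 CPM in WT mice. Atg5, also with an E-box, was at 22.7, 19.2 and 17.8 CPM in 113Q mice and at 18.1, 16.2 and 19.6 CPM in WT mice. Neither separated the groups. Atg12 averaged 33.8 ± 2.61 CPM in 113Q and 31.9 ± 1.85 CPM in WT, and Atg10 22.5 ± 2.26 CPM in 113Q and 22.6 ± 3.48 CPM in WT (SD, n = 3 each).

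The ATG4 proteases trim ATG8 proteins before coupling and free them from lipid afterwards. Atg4b was at 32.2, 32.6 and 33.3 CPM in 113Q mice and at 37.0, 34.5 and 34 CPM in WT mice. The groups did not overlap, but the change was small (log2 fold change -0.10, 95% interval 0.825 to 1.05 times, edgeR adjusted p = 0.327), and it was 0.62 with library totals. Atg4c averaged 12.2 ± 1.6 CPM in 113Q and 11 ± 0.586 CPM in WT, and Atg4d 42.0 ± 1.83 CPM in 113Q and 46.7 ± 6.65 CPM in WT (SD, n = 3 each). Atg4d shares 1379 exon bases with Kri1 on the other strand, which averaged 24.9 CPM in 113Q and 26.6 CPM in WT.

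Neither transcription factor passed. Tfeb was at 89.1, 130.1 and 123 CPM in 113Q mice and at 152, 137 and 126 CPM in WT mice. 113Q mouse 1 was lowest and the groups overlapped (log2 fold change -0.28, SE 0.15, edgeR adjusted p = 0.177; 0.44 with library totals). Epcam was at 0 in 113Q mouse 1, lowest in Tfeb, and in WT mouse 1, highest in Tfeb, and a link was not tested. Set against WT mice 1 and 3 alone, with its spread taken to be that of WT, 113Q mouse 1 gave a Tfeb log2 fold change of -0.64. With 1 mouse left out, the edgeR adjusted p of Tfeb ranged from 0.122 to 0.402. With library totals Tfeb passed in the other direction, as higher (edgeR adjusted p = 0.0164). Tfe3 was at 18.6, 18.8 and 19.2 CPM in 113Q mice and at 20.4, 18.9 and 16.2 CPM in WT mice, with an interval of the change from 0.861 to 1.21 times. The Tfeb to Tfe3 ratio was 4.80, 6.90 and 6.42 in 113Q mice and 7.45, 7.28 and 7.81 in WT mice. It was lower in each 113Q mouse (mean difference -0.33 on the log2 scale, exact p = 0.1, adjusted 0.267).

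Between genes, levels were compared as CPM per kilobase of the longest coding transcript in GENCODE M21. On this scale Sqstm1 was highest, at 209.9 ± 12.9 in 113Q and 203 ± 16.0 in WT (SD, n = 3 each). Map1lc3a followed at 156 ± 27.3 in 113Q and 157 ± 27.5 in WT, then in 113Q Gabarap at 103 ± 6.35, Map1lc3b at 99.4 ± 4.68 and Bnip3 at 89.0 ± 5.66. In WT these 3 were at 138 ± 22 for Gabarap, 79.0 ± 6.73 for Map1lc3b and 96.8 ± 14.1 for Bnip3. In WT, Map1lc3a and Gabarap lay within the sum of their SDs. Within 113Q, Gabarap and Map1lc3b lay within the sum of their SDs, while within WT Gabarap lay above Map1lc3b by more than that. The order below Sqstm1 depends on the transcript. With the median length of a gene's coding transcripts, Map1lc3b was at 158 in 113Q and 126 in WT, and Gabarap at 133 in 113Q and 177 in WT. Map1lc3a was then at 156 ± 27.3 in 113Q and 157 ± 27.5 in WT. It lay below Map1lc3b in 113Q and below Gabarap in WT, each time by less than its own SD. The lowest levels were those of Atg4c at 3.83 in 113Q and 3.46 in WT, Atg14 at 3.89 in 113Q and 4.42 in WT, and Uvrag at 4.27 in 113Q and 2.72 in WT. Uvrag, which rose most, was thus the lowest of the 34 in WT on this scale.

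Of 73 other genes of the pathway, 71 were tested, 17 rose (23.9%) and 15 fell (21.1%). That is 45.1% called, beside 34.6% of all genes (16.5% higher and 18.1% lower). With a filter of 1 CPM in 3 libraries, which removes more genes of low counts, the shares called were 47.1% and 41.9%. These genes were chosen with earlier results of these data known. Without 113Q mouse 3, 11 rose and 14 fell. With library totals alone, 58 rose and 3 fell (81.7% and 4.23%, beside 64.9% and 4.19% of all genes). Calcoco2, a receptor, and Tfec, a relative of Tfeb, were below the filter on low counts.

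Other core machinery (14 genes) had 4 that rose, 5 that fell and 5 that did not pass. That is 28.6% higher and 35.7% lower, beside 16.5% and 18.1% of all genes. The number that rose was 2 without 113Q mouse 2, 113Q mouse 3 or WT mouse 3. With library totals alone 8 rose and 2 fell (57.1% and 14.3%, beside 64.9% and 4.19% of all genes). Vmp1, a membrane protein that moves lipid at the endoplasmic reticulum, was at 31.9, 34.4 and 34.5 CPM in 113Q mice and at 75.2, 73.9 and 68.8 CPM in WT mice. Its level was 0.463 times that of WT (edgeR adjusted p = 3.95e-05). Atg101, a partner of Atg13, was at 17, 21.5 and 20.4 CPM in 113Q mice and at 48.3, 43.9 and 37.0 CPM in WT mice, and fell to 0.457 times the level in WT (edgeR adjusted p = 0.000389). Sh3glb1, which binds Becn1 through Uvrag, averaged 256 ± 15.7 CPM in 113Q and 446 ± 4.99 CPM in WT (SD, n = 3 each; edgeR adjusted p = 0.000214). With library totals, the log2 fold changes of Vmp1, Atg101 and Sh3glb1 were -0.39, -0.41 and -0.08, and Sh3glb1 lost its call (edgeR adjusted p = 0.401).

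Other receptors and mitophagy genes had 7 of 23 that rose, 2 that fell and 14 that did not pass. That is 30.4% higher and 8.7% lower, beside 16.5% and 18.1% of all genes, with a median log2 fold change of 0.17. Without 113Q mouse 3 the number that rose was 4. With library totals alone 22 rose and 0 fell (95.7% and 0%, beside 64.9% and 4.19% of all genes). Hdac6, a deacetylase that binds ubiquitin-tagged aggregates, was at 30.8, 30.8 and 29.9 CPM in 113Q mice and at 15.2, 21.7 and 19.4 CPM in WT mice, and rose 1.62 times (edgeR adjusted p = 0.00390). Ccpg1, a receptor for the endoplasmic reticulum, rose 1.5 times, with 90.9 ± 4.62 CPM in 113Q and 60.5 ± 4.52 CPM in WT (SD, n = 3 each; edgeR adjusted p = 0.00120). Phb2, a protein of the inner mitochondrial membrane, was at 77.9 ± 7.42 CPM in 113Q and at 144 ± 10.9 CPM in WT (SD, n = 3 each), and fell to 0.541 times the level in WT (edgeR adjusted p = 0.000332), but with library totals its groups overlapped and the call was lost (log2 fold change -0.17, edgeR adjusted p = 0.125).

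Tethering and fusion genes, which join the autophagosome to the lysosome, had 2 of 17 that rose, 6 that fell and 9 that did not pass. That is 11.8% higher and 35.3% lower, beside 16.5% and 18.1% of all genes. With upper-quartile factors 4 rose. With library totals alone 14 rose and 1 fell (82.4% and 5.88%, beside 64.9% and 4.19% of all genes). Vamp8, a fusion protein of the lysosome, was at 40.8, 38.0 and 42.2 CPM in 113Q mice and at 100.2, 72.8 and 80.7 CPM in WT mice, and fell to 0.477 times the level in WT (edgeR adjusted p = 0.000377). Fyco1, an adaptor that links LC3 and Rab7 to kinesin, was at 304, 319 and 270.4 CPM in 113Q mice and at 470.3, 532 and 498 CPM in WT mice (edgeR adjusted p = 0.000641). Rab7, the small GTPase of late endosomes, was at 60.5, 65.8 and 63.7 CPM in 113Q mice and at 96.9, 108 and 96.6 CPM in WT mice (edgeR adjusted p = 0.000490). With TMM factors, Vamp8, Fyco1 and Rab7 were lower in each 113Q mouse than in any WT mouse. With library totals the log2 fold change was -0.35 for Vamp8, whose groups stayed apart. It was -0.03 for Fyco1 and 0.06 for Rab7, whose groups overlapped and whose calls were lost (edgeR adjusted p = 0.818 and 0.530), so that the direction of Rab7 turned.

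Upstream regulators had 4 of 17 that rose, 2 that fell and 11 that did not pass. That is 23.5% higher and 11.8% lower, beside 16.5% and 18.1% of all genes. With library totals alone 14 rose and 0 fell (82.4% and 0%, beside 64.9% and 4.19% of all genes). The catalytic subunits of the energy sensor AMPK moved in opposite directions with TMM factors, while with library totals both lay above 0. Prkaa1 was at 32.2, 29.0 and 27.7 CPM in 113Q mice and at 13.5, 16.2 and 16.2 CPM in WT mice, and rose 1.93 times (edgeR adjusted p = 0.000423). Prkaa2, the main form in muscle fibres, was at 179.7, 192 and 172 CPM in 113Q mice and at 274, 269.9 and 304 CPM in WT mice, and fell to 0.641 times the level in WT (edgeR adjusted p = 0.000854), but with library totals its log2 fold change was 0.08, its groups overlapped and the call was lost (edgeR adjusted p = 0.471). The Prkaa1 to Prkaa2 count ratio, chosen after its values were seen and not tested, was 0.179, 0.151 and 0.161 in 113Q mice and 0.0494, 0.0602 and 0.0534 in WT mice. Foxo3, a transcription factor of autophagy genes in muscle, was at 10.6, 12.9 and 11.1 CPM in 113Q mice and at 7.61, 7.42 and 6.62 CPM in WT mice, and rose 1.6 times (edgeR adjusted p = 0.00514).

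**Figure D4:**
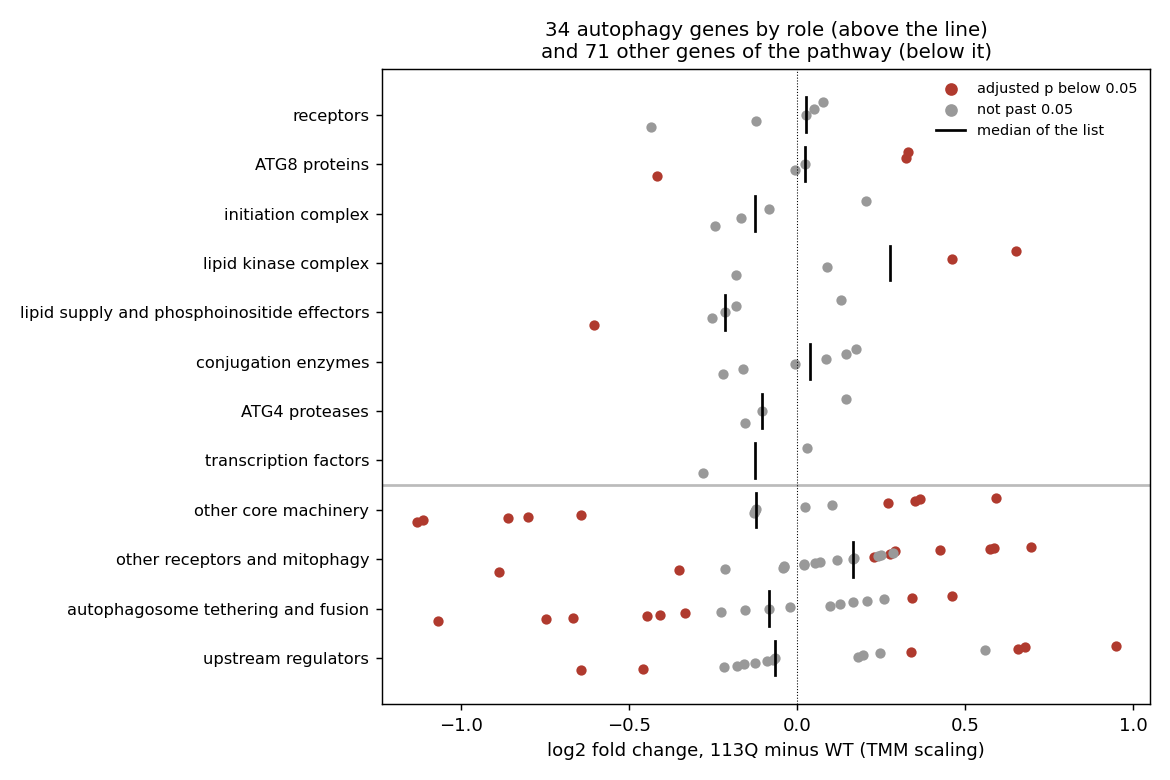
Log2 fold change, 113Q minus WT, with TMM scaling, for each of the 34 genes by role (above the grey line) and for 71 other genes of the pathway in 4 lists (below it). Red points passed an adjusted p of 0.05, grey points did not, and black bars mark list medians, which lie between -0.21 and 0.28 for the roles.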

How the data were processed

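Total RNA of flash-frozen muscle was isolated with Trizol, and libraries were made with a TruSeq kit, per the labels' protocols. The deposited table holds estimated counts per gene without correction for depth. The submitters' processing notes name Cuffdiff 2.1.1, Cufflinks, TopHat2 2.0.9 with Bowtie2 2.1.0, cutadapt and FastQC 0.10.0, and the build mm10, with no role or order. They do not say which annotation, filters or strandedness were used. An estimate can divide reads between overlapping genes or close copies.

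Counts were rounded, filtered with filterByExpr (minimum count 10), scaled with TMM factors and tested across all genes, 113Q minus WT, with the robust quasi-likelihood test of edgeR 4.0.16 (R 4.3.3). P-values are two-sided and Benjamini-Hochberg adjusted over 16960 genes. The SE was taken from the F statistic, as the size of the change over its root. The 95% intervals use the test's degrees of freedom. The labels name 6 mice and no batch, so batch was not tested. Marker lists were summed by library. The common biological coefficient of variation was 24.2%. Replicates differed by more than counting noise in each pair. The scripts were run on simulated counts in which a small set of genes was changed, equally up and down. Those counts lacked the difference in composition between the groups seen here, so the choice of scaling was not tested. Alternatives used DESeq2 1.42.0, limma 3.58.1 voom, other factors and filters, left-out mice, a replicate block and a term for libraries with Epcam of at least 1 CPM.

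Named were all 34 genes and, of each of 4 wider lists, the 3 with the smallest p; other choices are marked. The genes and lists were chosen with earlier results of these data known. Positions and overlaps come from GENCODE M21, promoters from RefSeq GRCm38.p6, both on the assembly of mm10. Older symbols of the table were matched through RefSeq synonyms (Atg101 among them).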

Additional observations from a re-analysis of the deposited data

How the results depend on the processing

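Library scaling moved the results most, by the construction of the alternatives. With library totals alone, 11725 genes were called (5869 with TMM factors), 32 of the 34 autophagy genes were higher and 0 lower, and 58 of the wider genes were higher and 3 lower. The log2 fold change turned to above 0 for Atg10 (0.72), Map1lc3a (0.71), Rb1cc1 (0.64), Atg4b (0.62), Bnip3 (0.60), Atg4d (0.57), Atg3 (0.56), Ulk2 (0.55), Atg14 (0.54), Atg9a (0.54), Atg2b (0.51), Atg16l1 (0.50), Ulk1 (0.48), Atg2a (0.47), Tfeb (0.44), Gabarap (0.30), Optn (0.29) and Wipi1 (0.12). Map1lc3a and Atg10, both near 0, turned to 0.038 each with upper-quartile factors and to 0.016 each with no filter, Map1lc3a to 0.15 with voom and Atg10 to 0.087 with the epithelial term, which left 1 gene lower.

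Without the 3 libraries with epithelial transcripts, 113Q mouse 1 remains against WT mice 1 and 3, and its spread is assumed to be like theirs. There 3127 genes were called, 2 of the 34 were higher and 5 of the wider genes were higher, with fewer samples. Atg10 (0.058), Rb1cc1 (0.080), Atg7 (-0.066), Bnip3l (-0.046) and Sqstm1 (-0.031) changed sign.

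Leaving out each mouse in turn gave 3 to 5 of the 34 genes higher and 1 to 3 lower, and 11 to 17 wider genes higher. Over all genes, 4325 to 5402 were called in these fits, beside 5869 with all mice. Log2 fold changes near 0 crossed it, over a range of -0.014 to 0.11 for Sqstm1, -0.029 to 0.071 for Bnip3l, -0.14 to 0.13 for Map1lc3a, -0.030 to 0.11 for Gabarapl2, -0.16 to 0.018 for Rb1cc1, -0.10 to 0.12 for Atg10 and -0.057 to 0.11 for Tfe3. So did the log2 ratios of Sqstm1 to Nbr1 (-0.13 to 0.036), Ulk1 to Ulk2 (-0.18 to 0.028) and Atg2a to Atg2b (-0.14 to 0.10).

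The labels do not say that replicate numbers pair the mice. Deviations from the group means correlated by 0.20, 0.24 and -0.27 within the numbers and by -0.44 to 0.38 across them. With 3 mice a group, these values cannot show whether mice were paired. With a replicate block, 4737 genes were called, 3 of the 34 were higher and 1 lower, since Map1lc3b and Gabarap lost their calls (edgeR adjusted p = 0.0609 and 0.0680). DESeq2, voom, RLE factors, a stricter filter, unrounded values and a fit that was not robust gave counts within 1.5 times of those reported. Where no value above shows it, the cause was not tested. With 3 mice a group, a p that missed the threshold does not show that a level did not differ.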
